A study of Homo sapiens with 6 samples.

Results

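The genes described here drive a cell from G1 into S phase. They are the D cyclins (CCND1, CCND2, CCND3), the E cyclins (CCNE1, CCNE2), their kinases (CDK4, CDK6, CDK2), the phosphatase gene CDC25A and the retinoblastoma gene RB1. The members were chosen by gene symbol, with earlier results of these data known, and all 10 were found among the 23152 genes of the count table. RNA was sequenced from 6 samples of T24, a line of bladder cancer cells that is widely used in culture. The control group (vector, n = 3) carried an empty vector and the other group (oeRNF112, n = 3) overexpressed RNF112, the gene of a RING finger ubiquitin ligase that the study places upstream of c-Myc degradation. The study used both plasmid transfection and a stable lentiviral T24 line to overexpress RNF112, the protocol text deposited with these samples describes siRNA transfection, and which of the overexpression cells were sequenced is not given in the sources used here. Both groups come from this single line, and no sample of unmanipulated cells was included. The labels do not say whether the samples of a group were separate cultures, so the p-values reflect only variation seen among these samples.

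In G1, growth signals raise D cyclins, which bind CDK4 or CDK6 and begin to phosphorylate the retinoblastoma protein. This protein holds E2F transcription factors in check, and its phosphorylation frees them to switch on the E cyclins, CDC25A and the genes of DNA replication. Cyclin E with CDK2, kept active by the removal of inhibitory phosphates by CDC25A, completes the step. Changes in this pathway, such as loss of RB1 or gain of CCND1, are common in bladder cancer. The study measured cyclin D1, cyclin E1 and PCNA protein as markers of proliferation and reported that each was lower with RNF112 overexpression. The sequencing measures mRNA, not protein, and addresses what RNF112 does to the mRNAs of the cells.

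The total counts were between 40029547 and 41259569 reads per sample. Between 19 and 27 reads were counted on RNF112 with the empty vector and between 29753 and 36963 with overexpression, which may include reads of the introduced construct. Of the marker genes of bladder carcinoma cells, KRT7, KRT8 and KRT18 had at least 31265 counts in each sample, and KRT19 had 5405 to 7274. EPCAM was low, with 66 to 99 counts in vector and 143 to 183 in oeRNF112, and CDH1 had at most 1 count. Of the urothelial markers, PPARG had 2056 to 2485 counts and GATA3 117 to 173, while UPK2 had at most 7, KRT20 at most 2 and UPK3A at most 1. The highest markers of other cell types were the fibroblast gene COL1A1 (262 to 421 counts) and the endothelial gene ROBO4 (132 to 220). PDGFRB (64 to 126) and CD14 (53 to 91) followed, while DCN, KDR and TEK had at most 3. The leukocyte gene LYZ had 97 counts in oeRNF112 replicate 1 and 2 to 8 in the other samples. CPM are counts scaled by library size and by the TMM factors named below. The summed CPM of the leukocyte list ranged from 3.54 to 4.05 in vector and from 2.76 to 5.26 in oeRNF112. In the same order, that of the fibroblast list ranged from 9.78 to 12.03 and from 12.2 to 12.4. That of the endothelial list ranged from 3.46 to 4.53 and from 4.598 to 5.79. Of the 5 carcinoma markers tested, 2 fell (KRT7 and KRT18) and 1 rose (EPCAM), against 8.14% of all genes called lower and 9.97% called higher. The summed CPM of that list ranged from 3528 to 4547 in vector and from 2709 to 3251 in oeRNF112. The part of these markers in the results was not tested. The share of counts on ribosomal protein genes ranged from 7.42% to 9.32% for vector and from 5.92% to 7.90% for oeRNF112, lowest within each group in vector replicate 2 and oeRNF112 replicate 3. Differences between groups were tested on the counts with edgeR's quasi-likelihood test after scaling by TMM factors, which correct for differences in composition. The p-values were adjusted over the 14467 genes tested (Benjamini-Hochberg). For each gene, edgeR takes part of the spread from the other genes, so its p-value and interval do not rest on that gene alone. Levels are given as RPKM, the authors' values of reads scaled by gene length and by library total. When edgeR was run on library totals without TMM, the median of all genes shifted from 0.00267 to 0.0962 on the log2 scale, so values near 0 can change sign with the scale.

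CCND3 and CCNE1 rose in oeRNF112. None of the members fell by edgeR's test or DESeq2, and at an unadjusted p under 0.05 from edgeR the number lower was also 0. A total of 9 members passed the filter on low counts, and these 2 had an adjusted p under 0.05. Over all genes tested, 18.1% were called, 9.97% higher and 8.14% lower, so that 2 calls among 9 members are close to that share. In these bulk samples, a different share of cells in a phase of the cycle and a different amount of mRNA per cell cannot be told apart. The median log2 fold change of the 9 members was 0.03, against 0.00 over all genes. Without vector replicate 1 or without oeRNF112 replicate 1 none of the members was called, and without oeRNF112 replicate 3 only CCND3 was. Without vector replicate 3 there were 3 calls, because CCND2 then passed the filter and was called as well. It passed only through its counts in oeRNF112, the group where it was higher, so no conclusion is drawn from this call.

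The members differed far more from each other than between the groups. Per gene length, CDK4 and CCND1 had the highest levels, with medians over the 6 samples of 132 and 125 RPKM, which placed them above 98.3% and 98.2% of the genes in the table. Their ranges overlapped. CDK2 came next at 57.1 RPKM and overlapped with neither neighbor, followed by RB1 at 23.6 and CCND3 at 22.0 RPKM, which overlapped with each other. CCNE2 (9.66), CDC25A (7.67), CDK6 (6.15) and CCNE1 (4.74 RPKM) formed the lower part of the order, in which each gene overlapped with the next. CCND2 was last, at 0.0190 RPKM. The T24 samples therefore held mostly mRNA of cyclin D1, CDK4 and CDK2 among these genes.

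**Figure D1:**
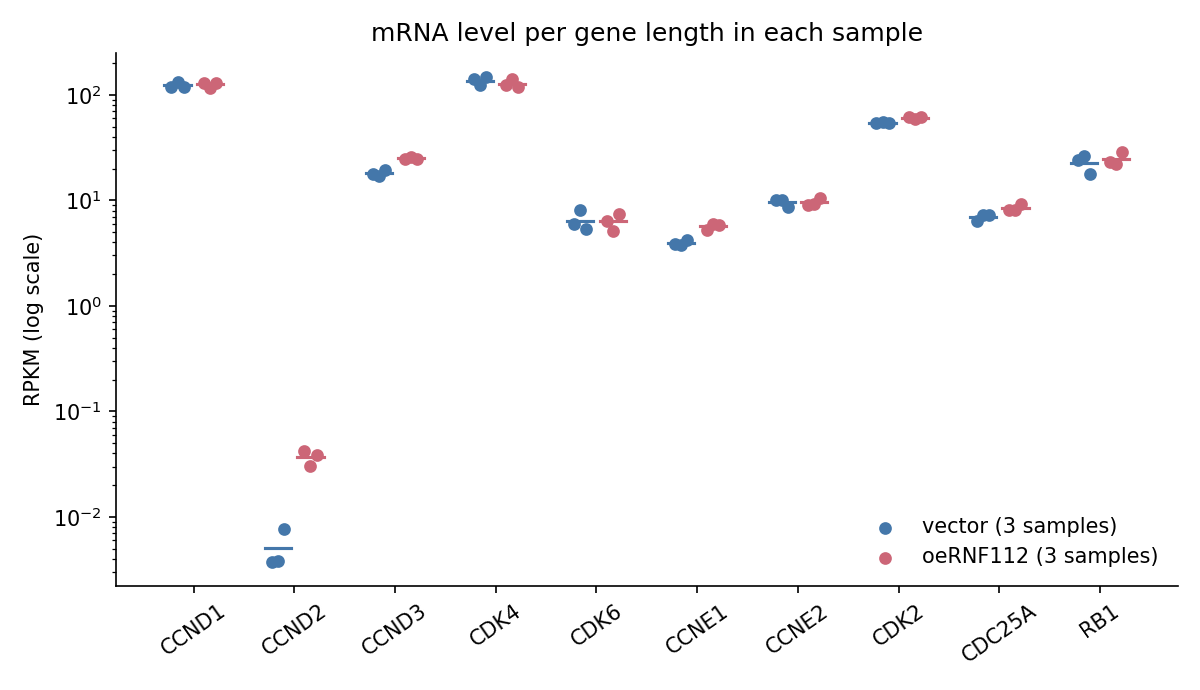
Level of each member in each sample, as RPKM on a log scale, with vector samples in blue and oeRNF112 samples in red. Points are samples and bars are group means (n = 3). CDK4 and CCND1 lie above 117 RPKM in all 6 samples, and the groups are apart in CCND2 (not tested), CCND3, CCNE1, CDK2 and CDC25A. On TMM-scaled counts, each oeRNF112 sample was above each vector sample in 4 of the 9 members tested and in 18.9% of all genes tested.

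Among the D cyclins, which are the regulatory subunits of CDK4 and CDK6, CCND1 had 120, 132 and 119 RPKM in the vector samples and 130, 117 and 130 RPKM in the oeRNF112 samples. The groups overlapped, and the highest and the lowest sample were vector replicate 2 and oeRNF112 replicate 2. The log2 fold change was -0.07 (95% confidence interval -0.26 to 0.12, adjusted p = 0.587 from edgeR's test), so that a change of the CCND1 mRNA beyond 0.837-fold or 1.08-fold lay outside the interval. With library totals the value was 0.02. Part of the CCND1 exons is shared with LTO1 on the opposite strand in GENCODE release 29, namely 10.3% of their bases.

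CCND3 had 17.7, 16.8 and 19.4 RPKM in the vector samples and 24.6, 25.9 and 24.8 RPKM in the oeRNF112 samples. Each oeRNF112 sample was above each vector sample, as for 18.9% of all genes tested. The group means were 17.98 ± 1.32 and 25.1 ± 0.665 RPKM (SD, n = 3), and the fitted difference was 0.39 on the log2 scale (SE 0.0935, edgeR adjusted p = 0.0195), a level of 1.31-fold with an interval from 1.13 to 1.51. Leaving out any 1 sample gave values from 0.33 to 0.46, but the call was lost without vector replicate 1 and without oeRNF112 replicate 1 (edgeR, adjusted p = 0.0766 and 0.0689).

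CCND2 was close to silent, with counts of 1, 1 and 2 for vector against 11, 8 and 10 for oeRNF112. It was below the filter and not tested with all 6 samples. The oeRNF112 samples held 29 counts in sum against 4 in vector. This is a ratio per read of 7.32, with an exact 95% interval from 2.57 to 28.6 that covers counting error only. More genes had a count above 0 in each oeRNF112 sample (19488 to 19531) than in each vector sample (18733 to 18773). The part of this in the CCND2 counts was not tested. Without the filter, edgeR gave an adjusted p of 0.0289. In RPKM the oeRNF112 samples reached at most 0.0423, so that CCND2 made up at most 0.0273% of the D cyclin mRNA in any sample. In the annotation, 13.8% of the exonic bases of CCND2 are shared with a gene on the same strand.

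The make-up of the D cyclin mRNA, which was not tested, shifted towards CCND3 without overlap of the groups. CCND3 accounted for 12.9%, 11.3% and 14.0% of the summed D cyclin RPKM in the vector samples and for 15.9%, 18.1% and 16.04% in the oeRNF112 samples. The sum itself was 142 ± 6.43 RPKM in vector and 151 ± 6.75 RPKM in oeRNF112 (SD, n = 3), with overlapping samples. CCND1 remained the main D cyclin throughout, at no less than 81.9% of the sum.

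**Figure D2:**
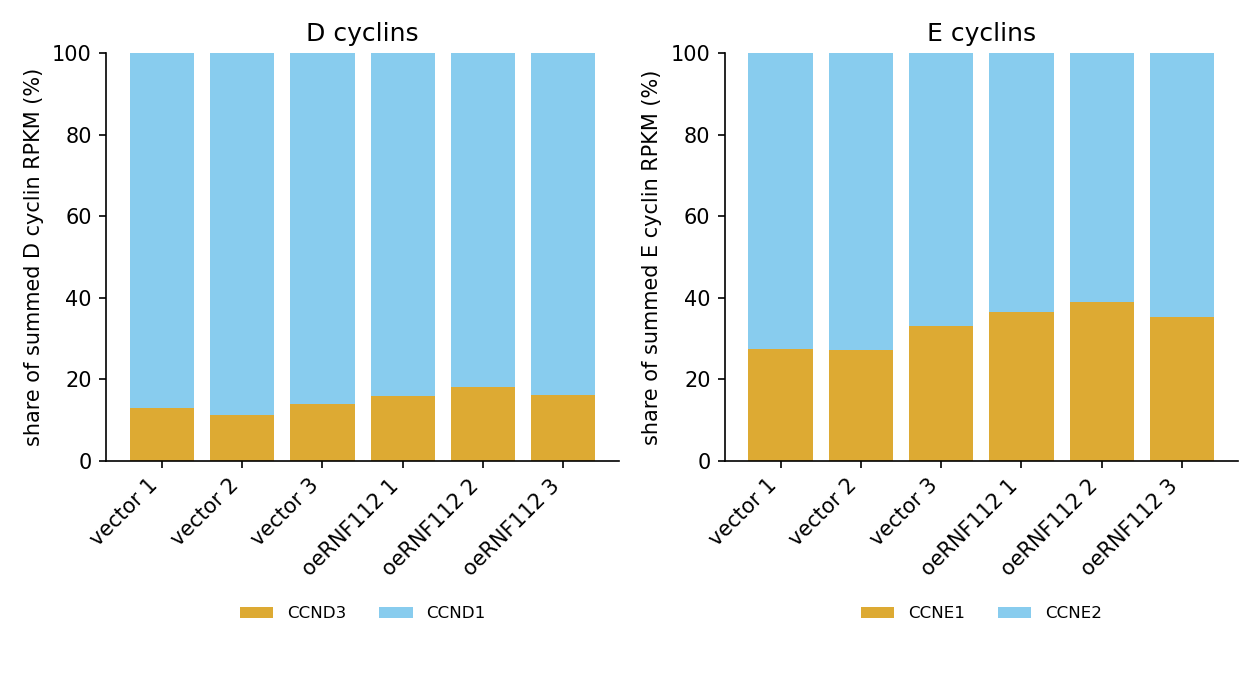
Share of each gene in the summed RPKM of the D cyclins (left) and of the E cyclins (right) in each of the 6 samples, in percent. CCND2 is left out of the drawing because it stays at or below 0.0273% of the sum. CCND3 takes at most 14.0% in vector and at least 15.9% in oeRNF112, and CCNE1 at most 33.1% and at least 35.4%.

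CCNE1 and CCNE2 encode the E cyclins, the partners of CDK2 at the entry into S phase. CCNE1 counts were 309, 297 and 334 for vector, or 3.83, 3.75 and 4.24 RPKM. For oeRNF112 they were 410, 470 and 459, or 5.24, 5.93 and 5.82 RPKM. The groups did not overlap. The fitted difference was 0.43 on the log2 scale (SE 0.121, edgeR adjusted p = 0.0357), or 1.35-fold with an interval from 1.12 to 1.62. The call was lost in 5 of the 6 fits without 1 of the samples. Over these fits the value lay between 0.38 and 0.49, and the adjusted p from edgeR was under 0.05 only without vector replicate 3 (0.0356), against 0.113 and 0.0723 without vector replicates 1 and 2 and 0.0690, 0.0793 and 0.0984 without oeRNF112 replicates 1, 2 and 3.

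CCNE2 was the more abundant E cyclin mRNA per length. It had 10.1, 10.0 and 8.58 RPKM in the vector samples and 9.11, 9.29 and 10.6 RPKM in the oeRNF112 samples, and the groups overlapped. Its log2 fold change was -0.08 (95% confidence interval -0.30 to 0.15, adjusted p = 0.624 from edgeR's test) and 0.02 with library totals. CCNE1 accordingly took 27.5%, 27.2% and 33.1% of the E cyclin RPKM in vector and 36.5%, 39.0% and 35.4% in oeRNF112. The ratio of CCNE1 to CCNE2 was 0.416 ± 0.0677 in vector and 0.587 ± 0.0468 in oeRNF112 (SD, n = 3). In the annotation, over all its transcripts, CCNE2 shares 37.0% of its exonic bases with INTS8 on the opposite strand. The library kit marks strand, but whether the counting used it is not given in the sources used here.

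None of the G1 kinase mRNAs passed the test. CDK4, the main kinase partner of the D cyclins here, had 140, 123 and 147 RPKM in the vector samples and 125, 140 and 118 RPKM in the oeRNF112 samples. Vector replicate 2 lay among the oeRNF112 samples, and oeRNF112 replicate 2 among the vector samples. The log2 fold change was -0.19 (95% confidence interval -0.44 to 0.05, adjusted p = 0.251 from edgeR's test), the lowest value among the members, and it stayed below 0 in all alternatives. In the annotation, over all its transcripts, CDK4 shares 43.2% of its exonic bases with TSPAN31 on the opposite strand. The 250 bases before and 50 after each RefSeq gene start (GRCh38.p14) were searched for CACGTG, the E-box that c-Myc with MAX binds, because the study asks about c-Myc. Windows were at hand for 6 of the 10 members, 9 windows in all, and CCND1, CCND2, CCNE2 and CDK2 had none. The window of CDK4 held CACGTG 3 times, at 216, 196 and 101 bases before the start, and 7.26% of all 35116 windows held it at least once. The stretches with these letters are shown on the minus strand, with CACGTG in capitals.
CDK4, chr12:57752499-57752528: gtCACGTGtgatagcaacagatCACGTGgc
CDK4, chr12:57752394-57752423: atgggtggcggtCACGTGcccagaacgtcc
Of the other 8 windows, 1 of CDK6 held CACGTG, at 30 bases after the start. The windows of CCNE1, CCND3, CDC25A and RB1 did not hold these letters, and the RB1 window lies at an internal start of the gene, at chr13:48476200-48476499.

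CDK6, the alternative partner of the D cyclins, was low per length. It had 5.94, 8.03 and 5.32 RPKM in the vector samples and 6.35, 5.16 and 7.43 RPKM in the oeRNF112 samples. It made up between 3.50% and 6.15% of the summed RPKM of CDK4 and CDK6. Its log2 fold change was -0.12 (95% confidence interval -0.47 to 0.23, adjusted p = 0.630 from edgeR's test), the widest interval of the 9 members tested, and it was 0.05 without vector replicate 2 and 0.01 without oeRNF112 replicate 2. With a coefficient of variation of 20.2% in vector and 16.4% in oeRNF112, the spread between the samples of a group exceeded the difference between groups.

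CDK2, the kinase of the E cyclins, had the narrowest spread. It had 54.5, 55.5 and 53.5 RPKM in the vector samples and 61.1, 58.7 and 61.9 RPKM in the oeRNF112 samples. The groups did not overlap on either scale, but the difference was small, with a log2 fold change of 0.06 (95% confidence interval -0.11 to 0.23, adjusted p = 0.621 from edgeR's test) and 0.15 with library totals. After TMM scaling the coefficient of variation was 0.808% in vector and 1.06% in oeRNF112. The interval does not rest on this spread alone, because edgeR takes part of the spread from other genes. In the annotation, 14.5% of its exonic bases are shared with a gene on the opposite strand.

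CDC25A, the phosphatase that activates CDK2, had 6.34, 7.33 and 7.33 RPKM in the vector samples and 8.01, 8.15 and 9.31 RPKM in the oeRNF112 samples. The oeRNF112 samples were all above the vector samples, and oeRNF112 replicate 3 was the highest. The log2 fold change was 0.18 (95% confidence interval -0.04 to 0.41, adjusted p = 0.230 from edgeR's test), and in the alternatives it lay between 0.13 and 0.28 with no call. Its window was also the only one among the 9 that held a form of the E2F motif (TTTCGCGC, TTTGGCGC, TTTCCCGC or TTTGCCGC, on either strand), which 3.31% of all windows held. The stretch is shown on the minus strand, with the motif, 44 bases before the start, in capitals.
CDC25A, chr3:48188443-48188472: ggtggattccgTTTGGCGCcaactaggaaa

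RB1, the brake on E2F and the substrate of these kinases, had 24.1, 26.4 and 17.7 RPKM in the vector samples and 23.1, 22.2 and 28.9 RPKM in the oeRNF112 samples. The lowest sample was vector replicate 3 and the highest oeRNF112 replicate 3, with the others between. The log2 fold change was 0.03 (95% confidence interval -0.29 to 0.35, adjusted p = 0.916 from edgeR's test). It was below 0 without vector replicate 3 (-0.12) and without oeRNF112 replicate 3 (-0.09). The RB1 mRNA was present in all 6 samples at a level above 88.6% of the genes in the table.

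**Figure D3:**
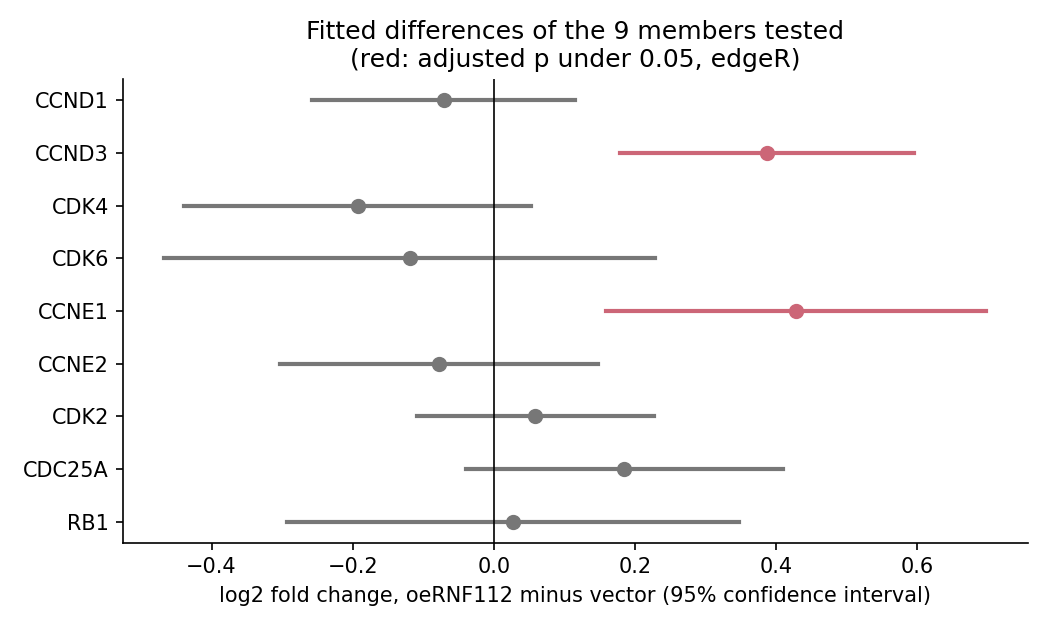
Fitted log2 fold change of each of the 9 members tested (oeRNF112 minus vector, n = 3 each) with its 95% confidence interval, from edgeR. CCND3 at 0.39 and CCNE1 at 0.43 have intervals above 0, and the intervals of the other 7 include 0.

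Within the groups, CDK6 and RB1 varied in the opposite direction to CDK4. Relative to the vector mean on the log2 scale of TMM-scaled counts, vector replicate 2 was at 0.31 for CDK6 and 0.21 for RB1 but at -0.18 for CDK4, and vector replicate 3 was at -0.23 and -0.32 for the first pair but at 0.12 for CDK4. In oeRNF112, replicate 3 was at 0.12 and 0.25 for CDK6 and RB1 and at -0.33 for CDK4. Vector replicate 2 and oeRNF112 replicate 3 were also the samples with the lowest share of ribosomal protein reads in their groups, and the part of this in the spread was not tested. CDK6 has the longest mRNA of the members, at 12020 bases by the length used for RPKM, and CDK4 the shortest at 1865 bases. Within each group, CCND3 ranked the samples as CDK4 did, and CCNE1 did so in vector and was highest in the same oeRNF112 sample as CDK4, replicate 2.

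**Figure D4:**
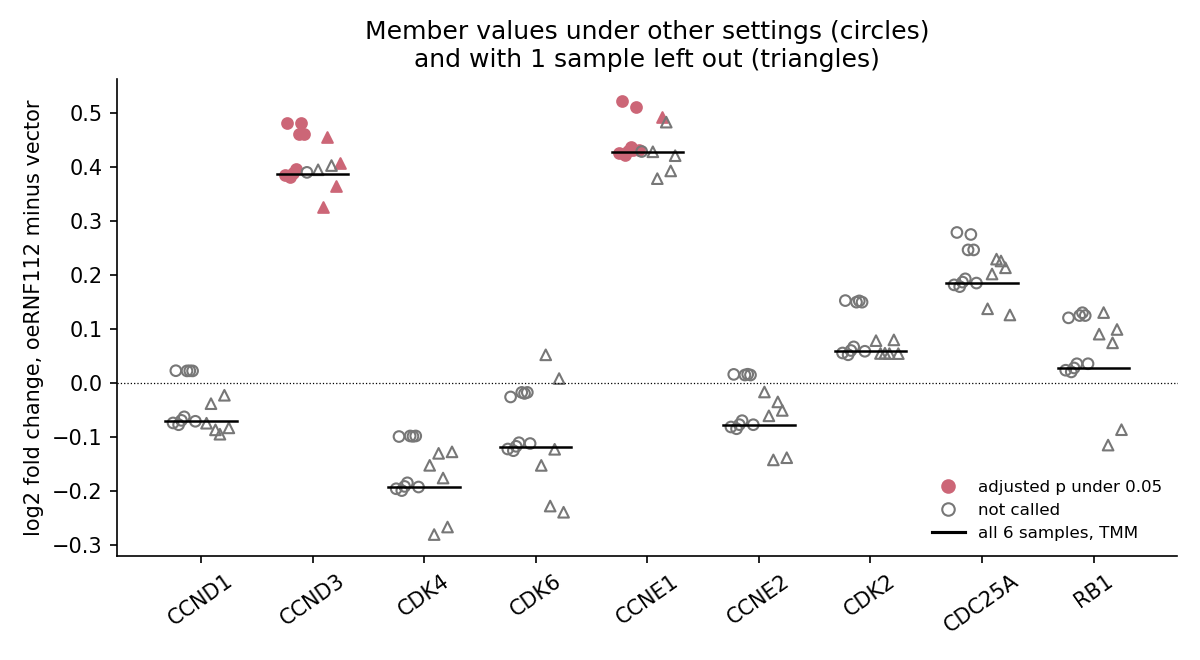
Log2 fold change (oeRNF112 minus vector) of the 9 members tested under 9 other settings of the analysis (circles) and in 6 fits that each left out 1 sample (triangles), with the value from all 6 samples as a black bar. Red symbols have an adjusted p under 0.05: CCND3 has them in 8 of 9 settings and in 4 of 6 fits, CCNE1 in 8 of 9 and in 1 of 6.

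The profiles of CCND1 and CCNE1 were chosen because their proteins were measured in the study. They were compared with those of 11564 other genes with a mean count of at least 100. The measure was the root mean square difference of centered log2 values of TMM-scaled counts over the 6 samples. The genes most like CCND1 were GMPPB, ATXN7L3, PHTF1 and COX18, at distances from 0.0156 to 0.0251. Those most like CCNE1 were SRXN1, MAPKAPK3, MFGE8 and IER3, at distances from 0.0264 to 0.0327. The distance includes the difference between the groups, so the calls of these genes follow from how they were picked.

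The partners of these genes in the pathway were described from 6 lists with 66 genes, all of which were tested. The test called 2 of them higher and 19 lower, against 9.97% and 8.14% of all genes. Their median log2 fold change was -0.11. Of the lower genes, 10 were on the list of S phase genes and 5 on that of the later cyclins, both downstream of the members. Without vector replicate 1 the number lower was 7, without oeRNF112 replicate 1 it was 9 and without oeRNF112 replicate 3 it was 12, and with library totals it was 12.

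None of the 12 genes of the E2F factors, their DP partners and the RB1 relatives was called by edgeR, while DESeq2 called 1 higher and none lower. At an unadjusted p under 0.05 from edgeR, 1 was higher and 1 lower. Their median log2 fold change was -0.01. The factor with the smallest p was E2F7, a repressor of E2F targets, at 15.98 to 26.8 RPKM in vector and 24.8 to 36.8 RPKM in oeRNF112, with a log2 fold change of 0.49 (adjusted p = 0.0851 from edgeR's test). E2F7 was called without vector replicate 2, at 0.70, and without oeRNF112 replicate 2, at 0.63 (edgeR, adjusted p = 0.00453 and 0.0356), and the lowest value was 0.34 without vector replicate 3 (adjusted p = 0.213). TFDP2, a DP partner, was at -0.20 (adjusted p = 0.122). E2F1, which drives S phase genes, was at 0.12 with an interval from -0.09 to 0.33.

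Among the 7 genes of CDK inhibitors, 2 rose and 2 fell. CDKN1A (p21), an inhibitor of CDK2 complexes, had 20.2, 18.7 and 21.6 RPKM in the vector samples and 37.4, 40.1 and 39.3 RPKM in the oeRNF112 samples. The groups were far apart, and the difference of 0.85 on the log2 scale (SE 0.0930, edgeR adjusted p = 4.63e-04) was called in all 15 alternatives. CDKN2D, an inhibitor of CDK4 and CDK6, rose by 0.50 (adjusted p = 0.0312), and its call was lost without vector replicate 1 or 2 and without oeRNF112 replicate 1 or 2 (edgeR, adjusted p from 0.0541 to 0.107). CDKN2A and CDKN2C, which encode inhibitors of the same kinases, fell by 0.67 and 0.65 (adjusted p = 0.00704 and 0.00206). CDKN2A also encodes ARF, an inhibitor of MDM2, and the counts do not separate its products. CDKN1B (p27) was at -0.15 with an interval from -0.34 to 0.04.

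Of the 8 genes of the CDK-activating kinase and other regulators of CDK phosphorylation, CDC25C was lower at -0.35 (adjusted p = 0.0307 from edgeR's test). This phosphatase acts at the entry into mitosis, and its call held only without vector replicate 2 or 3 (adjusted p = 0.0451 and 0.0303) among the fits without 1 sample and was lost in 5 of the 9 other settings. Of the 13 genes of cyclin turnover, CUL1, the scaffold of the SCF ubiquitin ligases, was lower at -0.28 (adjusted p = 0.0381), and this call was lost whichever sample was left out and in 6 of the 9 other settings. At an unadjusted p under 0.05 from edgeR, 2 of the 13 were higher and 4 lower, and the list median was -0.11. FBXW7, which directs cyclin E to degradation, was at 0.38 (adjusted p = 0.0973), and SKP2, which directs p27, at -0.06 (adjusted p = 0.703).

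Among the later cyclins and CDK1, 5 of 6 genes fell and the median log2 fold change was -0.40. CCNB2, a mitotic cyclin, had 73.0, 64.5 and 72.7 RPKM in the vector samples and 53.2, 53.6 and 50.6 RPKM in the oeRNF112 samples, a log2 fold change of -0.51 (adjusted p = 0.00563 from edgeR's test). CCNB1 was at -0.42, CCNA2, the cyclin of S phase, at -0.33 and CCNA1 at -0.84. The calls of CCNB1 and CCNA2 were lost without vector replicate 1 (edgeR, adjusted p = 0.0738 and 0.128), and that of CCNA2 also without oeRNF112 replicate 1 or 2 (0.116 and 0.0714). CDK1, their kinase, was at 0.02 (adjusted p = 0.919). The number of genes that fell was 2 without vector replicate 1, 3 without oeRNF112 replicate 1 and 3 without oeRNF112 replicate 2. It was also 3 with library totals and in each of the 3 limma fits on log2 RPKM, in which the call of CCNA2 was lost (adjusted p from 0.0579 to 0.0801).

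Of the 20 S phase genes under E2F control, 10 fell and none rose by edgeR's test, with a median log2 fold change of -0.29. DESeq2 called 12 lower and none higher, edgeR with no filter called 8 lower, library totals gave 7 lower and 1 higher, and the 3 limma fits on log2 RPKM each gave 7 lower and 1 or 2 higher, while at an unadjusted p under 0.05 from edgeR 13 were lower and 1 was higher. MCM5, a subunit of the replicative helicase, had 38.9, 37.2 and 41.8 RPKM in the vector samples and 29.6, 31.4 and 28.7 RPKM in the oeRNF112 samples, and the groups did not overlap (log2 fold change -0.49, edgeR adjusted p = 0.00639). TYMS, the thymidylate synthase gene, was at -0.53, and MCM6, another subunit of the helicase, was at -0.40 and not called without vector replicate 1 (edgeR, adjusted p = 0.0564). RRM2, the small subunit of ribonucleotide reductase, was at 0.12 with an interval from -0.06 to 0.29. The number that fell was 3 without vector replicate 1, 4 without oeRNF112 replicate 1 and 6 without oeRNF112 replicate 3. The plot by list shows that the G1 members lay on both sides of 0 while most genes of the S phase list and of the later cyclins lay below.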

How the data were processed

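T24 cells were profiled by RNA-seq in 3 vector and 3 oeRNF112 samples. Raw read counts per gene symbol and RPKM values were deposited by the authors. The submitters' processing notes name Trimmomatic 0.36, featureCounts, Subread 1.5.1 and GRCh38, while the annotation and the strand setting are not given in the sources used here. The deposited RPKM equaled the count divided by gene length and column total for all 23152 genes (relative tolerance 0.001). The counts were analyzed with edgeR 4.0.16 in R 4.3.3 (filterByExpr, TMM, quasi-likelihood test, adjusted p under 0.05). The scripts were tested on simulated data with 3 samples per group. There edgeR called 9 of 99 genes changed by 0.4 on the log2 scale and 80 of 98 changed by 1. Of all 96 calls, 7 were false. The simulation changed few genes, so these shares need not hold for the data, but differences near 0.4 can be missed. A gene with no reads could still hold up to 3, a CPM of at most 0.0749 by library total without TMM. Alternatives were DESeq2 1.42.0, DESeq2 size factors in edgeR, library totals, other filters, limma 3.58.1 on log2(RPKM + 1) or log2(RPKM + 0.1), a replicate block and each sample left out in turn. No 2 samples held identical values. The members and lists were chosen with earlier results of these data known. Named are all members, RNF112, at most 4 called genes per list and direction with the smallest p (2 genes where none was called), and the 4 genes most like CCND1 and CCNE1. Of these, 1 gene is not reported here. E2F1, CDKN1B, FBXW7, SKP2, CDK1, PCNA, RRM2 and the marker genes are not covered by the rule and were picked with their values in view. Exon overlaps came from GENCODE release 29 and promoter windows from RefSeq (GRCh38.p14). The overlaps are shares of the bases in exons of any transcript of a gene. The gene models behind the counts may differ, and the CDK4 length used for RPKM was 1865 bases.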

Additional observations from a re-analysis of the deposited data

How the results depend on the processing

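The numbers of genes called with all 6 samples were 2620, of which 1442 were higher and 1178 lower. Leaving out 1 sample gave 1061 to 3387 genes, 702 to 1841 higher and 359 to 1546 lower, lowest without vector replicate 1 and highest without vector replicate 2. Members called higher went from 0 to 3, partner genes called higher from 1 to 4 and lower from 7 to 21. In these fits, CCND3 was between 0.326 and 0.456 and CCNE1 between 0.379 and 0.493. CCND2 was tested in 4 of them and was between 2.50 and 3.06. It passed the filter there only through its oeRNF112 counts, so these values are no separate support. CDK6 was between -0.240 and 0.0522 (0.00816 without oeRNF112 replicate 2) and RB1 between -0.115 and 0.130 (-0.0866 without oeRNF112 replicate 3).

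Genes called lower were 659 with library totals, 424 and 430 with limma at RPKM pseudocounts of 1 and 0.1 and 603 at a mean RPKM of at least 1. In the same order, the lower partner genes were 12, 11, 12 and 12. The higher ones were 4 in the first, second and last of these. CCND1 was at 0.0227, 0.0224, 0.0225 and 0.0224, and CCNE2 at 0.0159, 0.0148, 0.0162 and 0.0148, none with a call. CCND2 was called at 2.77 with DESeq2, 2.67 with no filter, and 0.0451 and 0.382 with limma on log2(RPKM + 1) and log2(RPKM + 0.1), where the pseudocount sets the size.

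With the replicate block, 876 genes were called (618 higher, 258 lower), no member, and 1 higher and 4 lower partner genes, 1 of the later cyclins and 1 of the S phase genes among the lower ones. CCND3 was at 0.390 (adjusted p = 0.135) and CCNE1 at 0.429 (adjusted p = 0.156). Correlations of deviations between like-numbered samples were -0.116, -0.363 and -0.296, and the numbers were not taken as pairs. The cause of these changes was not tested. Of 144 values of the 16 partner genes that the naming rule takes under other settings, 23 lost the call, 1 gained it and 0 changed sign.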
